A study of Mus musculus with 6 samples.

Results

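The phagocyte NADPH oxidase and the enzymes that remove its products were described in neutrophils lacking cGAS, an enzyme that senses DNA in the cytosol, with and without LPS. The set held 7 genes of the 38739 in the table, chosen by symbol: the oxidase subunits *Ncf1* and *Cyba*, the proton channel *Hvcn1*, the GTPases *Rac1* and *Rap1a*, and the peroxide-removing enzymes *Cat* and *Gpx1*. All 7 had values above 0 in every sample. Peritoneal neutrophils of cGAS knockout mice on the strain labelled C57B/L6 were kept for 2 h in medium with serum alone (untreated, 3 samples) or with 500 ng/mL of LPS, the lipopolysaccharide of the Gram-negative cell wall (3 samples). The study's methods give a lower dose for the sequenced cells. All samples carried the knockout, with no wild-type sample among them, and the mice of the study were 8-week-old males. The methods describe lavage of the peritoneum after thioglycolate injection, which draws neutrophils there, and name no further purification. The labels do not say whether the samples of a group came from separate mice, so p values measure the spread between these samples, which may be technical.

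In the resting neutrophil the oxidase is kept apart: *Cyba* encodes p22phox, the membrane partner of the catalytic subunit gp91phox, while *Ncf1* encodes p47phox, which waits in the cytosol with its partner subunits. After a stimulus p47phox is phosphorylated, the cytosolic proteins move to the membrane, a Rac GTPase joins them and electrons pass from NADPH to oxygen, giving superoxide. The channel encoded by *Hvcn1* lets protons out so that this charge transfer can go on. Superoxide turns into hydrogen peroxide, which catalase (*Cat*) and glutathione peroxidase 1 (*Gpx1*) break down inside the cell. The oxidase thus acts mostly through assembly of proteins already made, and transcript levels do not measure its activity.

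*Gpx1* was the only gene of the set called by limma on the values as deposited, so its gene is shown first. It lies on chromosome 9 of GRCm39, from 108216102 to 108217546 on the plus strand, with a long non-coding RNA gene (*Gm57050*, not analysed here) sharing 900 identical bases on the other strand. The libraries were strand-specific, but whether the quantification used strand is not given in the sources used here. The enzyme carries selenocysteine, an amino acid read from a codon that otherwise stops translation, and the annotation places it in exon 1 at codon 47 of 201. The stretch of coding sequence around it in transcript *Gpx1*-201 (chr9:108216620-108216682, GRCm39, plus strand) is given with the selenocysteine codon in capitals.
Gpx1 selenocysteine codon: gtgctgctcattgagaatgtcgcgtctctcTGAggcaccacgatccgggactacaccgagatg

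The 250 bases before the RefSeq start of *Gpx1* and of *Cyba*, the gene with the next smallest p, are shown for reference (chr9:108338830-108339079, plus strand, and chr8:122432941-122433190, minus strand, both on GRCm38.p6). Promoter windows were held for 4 of the 7 genes. Capitals mark matches on either strand to GGGA, any 4 bases and CC, a loose form of the site bound by NF-κB, the main transcription factor downstream of the LPS receptor.
Gpx1 promoter: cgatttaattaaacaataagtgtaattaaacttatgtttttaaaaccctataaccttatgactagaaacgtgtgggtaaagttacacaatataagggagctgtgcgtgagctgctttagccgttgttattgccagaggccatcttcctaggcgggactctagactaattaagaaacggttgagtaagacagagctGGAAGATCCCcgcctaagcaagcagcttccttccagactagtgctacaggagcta
Cyba promoter: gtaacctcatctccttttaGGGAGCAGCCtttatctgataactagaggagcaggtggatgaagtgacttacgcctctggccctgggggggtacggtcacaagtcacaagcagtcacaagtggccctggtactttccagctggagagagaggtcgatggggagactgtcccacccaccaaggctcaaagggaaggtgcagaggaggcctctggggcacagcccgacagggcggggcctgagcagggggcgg
Each window held 1 match, as did those of *Ncf1* and *Cat*, and 17.6% of the 32851 windows of this length held at least 1. TGACNNNGC, the core of the antioxidant response element read by the stress factor NRF2, was found in 0 of the 4 windows against 10.2% of all windows. GAGGAA, the core bound by the myeloid factor PU.1, was found in the *Cat* window alone, against 23.3% of all. TATAAA was found in 0 of the 4, against 12.4%. These are matches of letters and not shown binding sites.

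Values were read from their digits as scaled TPM, although the table is named as counts. TPM is a transcript's share of the library, corrected for its length. It was taken to be averaged across each gene's transcripts, with every sample then divided by its own factor, and the averaging was not tested. Because of this reading, levels were compared mainly between samples. Sums over genes, and the share of a gene or gene type in a sum, rest on such values and are not shares of reads. How many reads lie behind a value is unknown, so neither a counting interval nor a detection floor is given. The catalytic subunit *Cybb* (chromosome X), *Ncf4* and the neutrophil GTPase *Rac2* (both chromosome 15) were not analysed here. Among the sequences summed, protein-coding genes took 21.9 to 29.1% of the untreated totals and 51.3 to 60.2% of the LPS totals, which bears on every fold change below. Of 11 LPS-response genes in the table, 8 were called higher, a check that the LPS samples are as labelled. *Cgas* was at or below 0.307 in all samples, with no wild type to set beside it.

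Markers of cell types were summed per sample. Of 15 neutrophil markers 12 were in the table, and all 12 were above 0 in every sample. *Ly6g*, *Retnlg* and *Fpr1* were not analysed here. The sum of the 12 was 9690 to 28400 when untreated and 16100 to 54600 after LPS, most of it *S100a8* and *S100a9*. Gene by gene, 6 had a log2 fold change (LPS against untreated) above 0 and 6 below, with a median of -0.24. In 0 of the 12 did all LPS samples lie above the untreated ones, and in 3 they lay below, beside 13.1% and 9.75% of all genes tested. By the study's limits, given below, 0 of the 12 were called higher and 1 lower. This was *Cxcr2*, with means of 86.5 untreated and 13.1 after LPS (log2 fold change -2.67, adjusted p = 0.0944 from limma). Markers of B cells (5 genes) summed to 280 to 1090 and 262 to 796, and those of red cells (5 genes) to 21.5 to 5630 and 165 to 4650, with the highest sum of each group in replicate 3. Macrophage markers (8 genes, none at 0 throughout) summed to 165 to 202 when untreated and 273 to 416 after LPS. These sums did not overlap, but most of each was the 1 gene *Cd68* (157 to 179 untreated and 230 to 381 after LPS). Of the 8 genes, 2 had all LPS samples above the untreated ones and 1 had them below. The shares of all genes tested were 13.1% and 9.75%. By the study's limits 1 of the 8 was called higher and 0 lower. This was *C1qb*, with means of 2.77 untreated and 19.8 after LPS (log2 fold change 2.62, adjusted p = 0.0642 from limma). T cell markers (5 genes) summed to 10.8 to 14.8 and 4.76 to 12.1, eosinophil markers (4 genes) to 3.10 to 8.52 and 2.02 to 5.31, and mast cell markers (3 genes) to 4.69 to 40.8 and 5.05 to 49.1. The part of these other cells in the values below was not tested. In such bulk samples fewer cells of a type and less RNA per cell cannot be told apart.

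Each gene was tested across all 23049 genes above 0 in at least 1 sample with limma on log2(scaled TPM + 1), on which changes of low genes come out too small. Genes were called by the limits of the study, an unadjusted p under 0.01 with a log2 fold change beyond 2, and by a second rule, a Benjamini-Hochberg adjusted p under 0.05. By the first rule 1.69% of genes were called higher and 1.31% lower after LPS, and by the second 0.894% and 0.946%. Of the 7 genes, 1 was called lower by each rule (*Gpx1*) and 0 were called higher. With limma, 1 gene (*Cyba*) was higher at an unadjusted p under 0.05, where 10.3% of all genes were higher and 6.66% lower. Among the 6012 protein-coding genes with a mean of 1 or more, 1228 were higher and 458 lower at that p. Limma-voom was also applied, which scales each sample to its sum over all genes and so does not keep the deposited scaling. It put 5 genes of the set higher at an adjusted p under 0.05, beside 38.8% of all genes. By the first rule it called 1 of them (*Cyba*) higher, beside 6.73%.

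*Gpx1*, the glutathione peroxidase that reduces hydrogen peroxide in the cytosol and mitochondria, fell 7.40-fold after LPS by the ratio of means. Its values were 86.8, 123 and 80.0 scaled TPM untreated (96.6 ± 23.2, SD, n = 3) and 10.1, 16.8 and 12.2 after LPS (13.0 ± 3.42, SD, n = 3). The lowest untreated sample lay far above the highest LPS sample, and the spread was alike in both groups, with a coefficient of variation of 24% and 26.2%. The log2 fold change from limma was -2.80 (standard error 0.33, 95% interval -3.60 to -1.99, adjusted p = 0.0219), lower in 3 of 3 LPS samples. It was the 5th lowest among 6012 protein-coding genes with a mean of 1 or more, of which 0.715% were lower at an adjusted p under 0.05. With 3 samples a group an exact permutation test (two-sided) cannot go below p = 0.10, the value reached here. The call by the first rule held in 20 of 20 alternatives, whereas the adjusted p from limma was under 0.05 in 14 of them. It was above 0.05 when 1 sample was left out in 4 of 6 cases: 0.0505 without untreated replicate 1, 0.0565 without untreated replicate 3, 0.0918 without LPS replicate 1 and 0.0961 without LPS replicate 3. With the replicate number as a block it was 0.0811, and 0.0524 with that block and the same sum over protein-coding genes.

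**Figure D1:**
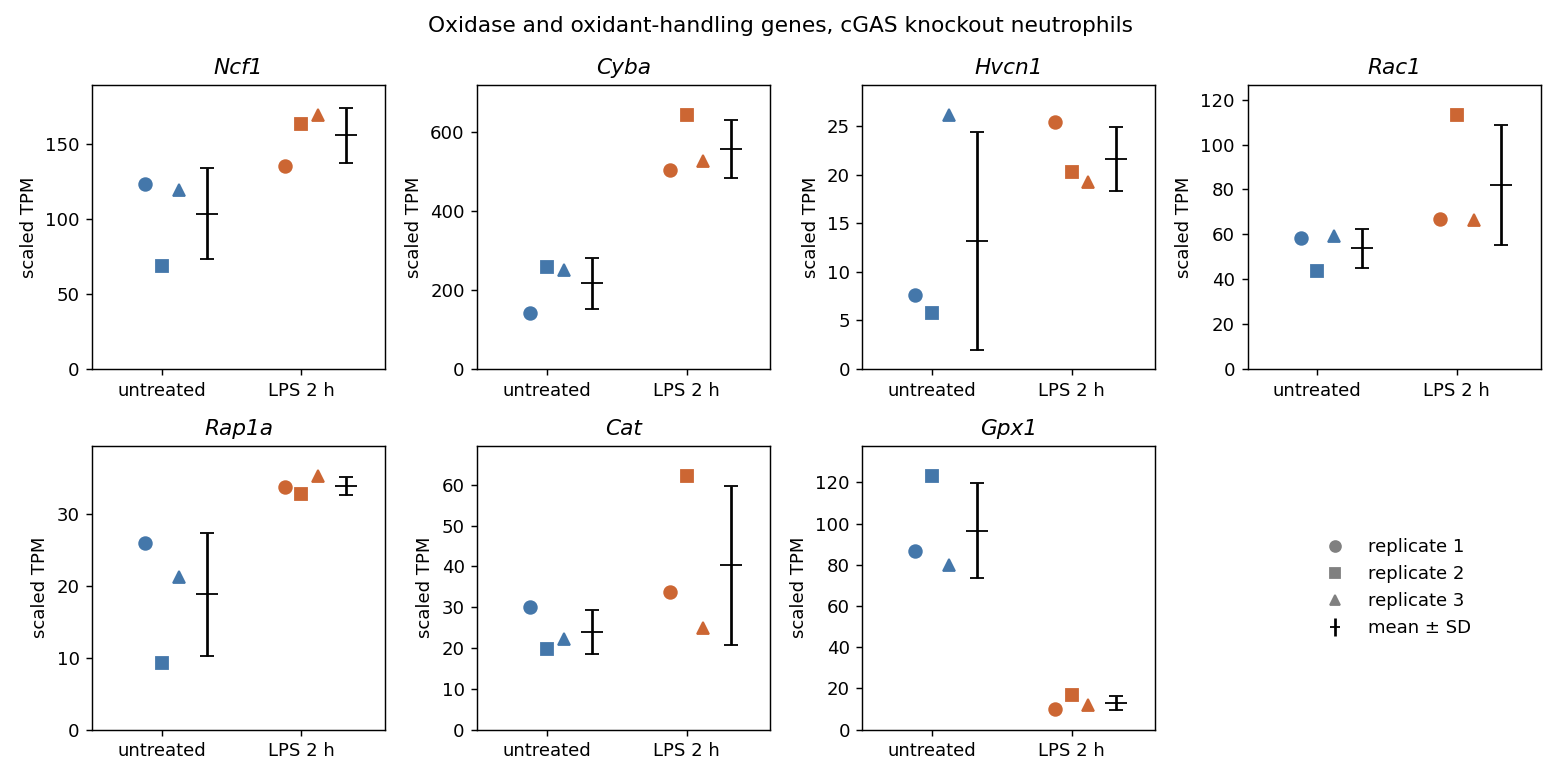
Scaled TPM (vertical axes, from 0) of the 7 genes in each untreated and LPS sample, with marker shapes for the replicate numbers and the mean ± SD (n = 3) beside each group. The *Gpx1* values of the LPS samples (10.1 to 16.8) lie below all untreated ones (80.0 to 123), while *Cyba* lies higher after LPS (505 to 643 against 142 to 258) and *Hvcn1* and *Cat* overlap between groups.

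Catalase, the peroxisomal enzyme that splits hydrogen peroxide without a cofactor supply, did not follow *Gpx1*. *Cat* values were 30.1, 19.8 and 22.2 scaled TPM untreated (24.0 ± 5.37, SD, n = 3) and 33.7, 62.1 and 24.9 after LPS (40.2 ± 19.4, SD, n = 3). The groups overlapped, since the third LPS sample lay below the first untreated one, and LPS replicate 2 stood highest. The log2 fold change was 0.64 (standard error 0.42, 95% interval -0.38 to 1.65, adjusted p = 0.504 from limma), and 0.28 without LPS replicate 2.

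A ratio of 2 genes within a sample does not depend on how that sample was scaled. *Gpx1* relative to *Cat* was 2.89, 6.21 and 3.60 when untreated and 0.301, 0.271 and 0.491 after LPS. *Gpx1* relative to *Cyba* was 0.613, 0.477 and 0.319 untreated and 0.0201, 0.0261 and 0.0232 after LPS. In all 6 ratios of *Gpx1* to another gene of the set the LPS samples lay below every untreated sample. Among the other 6 genes the ratios overlapped between the groups for every pair. Such ratios show unequal change between genes and not which of them changed.

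**Figure D2:**
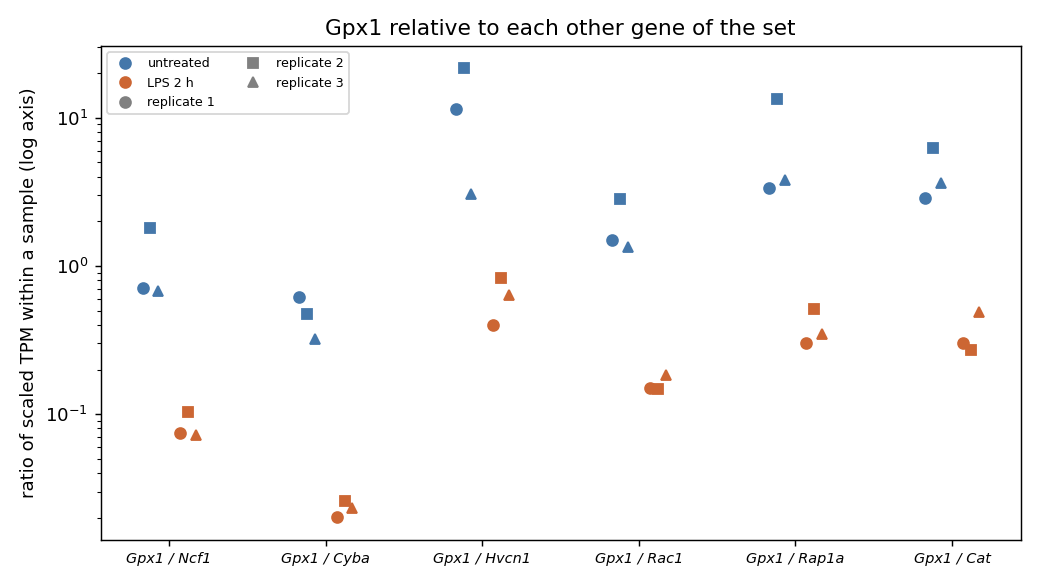
Ratio of *Gpx1* to each of the other 6 genes within a sample (log axis), for 3 untreated and 3 LPS samples, with marker shapes for replicate numbers. In each ratio all LPS samples lie below all untreated samples, as for *Gpx1* over *Cat* (0.271 to 0.491 against 2.89 to 6.21).

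Among the oxidase genes, *Cyba* had the largest difference. Its values were 142, 258 and 251 scaled TPM untreated (217 ± 65.2, SD, n = 3) and 505, 643 and 527 after LPS (558 ± 74.0, SD, n = 3), 2.57 times as much by the ratio of means. All LPS samples lay above all untreated ones, with untreated replicate 1 the lowest. The log2 fold change was 1.40 (standard error 0.34, 95% interval 0.57 to 2.23, unadjusted p = 0.00605 and adjusted p = 0.105 from limma), which passed neither rule. With the first rule's fold limit set to 1 in place of 2 on the log2 scale, *Cyba* was the 1 gene of the set called higher, beside 3.62% of all genes. With each sample scaled to the same sum over all genes it was 2.03 (adjusted p = 0.0432) and past both, as were 3.42% of all genes by the first rule and 3.14% by the second on the higher side, and with the same sum over protein-coding genes 0.91 (adjusted p = 0.23). *Cyba* lies on chromosome 8 (123150422 to 123159706, minus strand) and shares 423 identical bases on opposite strands with *Il17c*, which was at 0 to 2.58 untreated and 3.43 to 4.55 after LPS.

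*Ncf1*, the organizer subunit that carries the cytosolic part of the oxidase to p22phox, was at 123, 68.3 and 119 scaled TPM untreated (103 ± 30.5, SD, n = 3) and 135, 163 and 169 after LPS (156 ± 18.4, SD, n = 3). The LPS samples lay above the untreated ones, with a narrow gap to the first untreated sample. The log2 fold change of 0.63 (standard error 0.34, 95% interval -0.19 to 1.45, adjusted p = 0.402 from limma) was within the spread between samples, and it was 0.36 without untreated replicate 2. The gene lies on chromosome 5 (134248907 to 134258479, minus strand). It shares 193 identical bases on opposite strands with *Gtf2ird2*, which was at 1.56 to 6.16 untreated and 6.38 to 10.3 after LPS.

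*Cybc1*, a chaperone needed for gp91phox and p22phox to be made, was at 4.82, 11.0 and 5.66 scaled TPM untreated (7.15 ± 3.35, SD, n = 3) and 2.86, 5.39 and 2.85 after LPS (3.70 ± 1.46, SD, n = 3). The groups overlapped, with untreated replicate 2 the highest, and the log2 fold change was -0.76 (standard error 0.42, 95% interval -1.78 to 0.25, adjusted p = 0.411 from limma), past neither rule.

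The GTPases of the set were each higher in all LPS samples than in any untreated sample, though by little. *Rac1*, a small GTPase that can serve the oxidase and drives actin assembly, was at 58.3, 43.8 and 59.2 scaled TPM untreated (53.7 ± 8.65, SD, n = 3) and 66.8, 113 and 66.3 after LPS (82.1 ± 26.9, SD, n = 3). LPS replicate 2 was the highest and the other LPS samples lay close to the untreated range (log2 fold change 0.57, standard error 0.34, 95% interval -0.25 to 1.39, adjusted p = 0.453 from limma, and 0.32 without LPS replicate 2). *Rap1a*, a Ras family GTPase first purified with the oxidase cytochrome and known for its part in integrin adhesion, was at 25.9, 9.24 and 21.2 untreated (18.8 ± 8.60, SD, n = 3) and 33.7, 32.7 and 35.2 after LPS (33.8 ± 1.27, SD, n = 3). Its LPS samples lay close together, while untreated replicate 2 stood low (log2 fold change 0.93, standard error 0.43, 95% interval -0.11 to 1.97, adjusted p = 0.332 from limma, and 0.51 without untreated replicate 2). The pseudogene *Gm9392*, 98% identical to *Rap1a* over 554 bases, was at 0 to 6.27 untreated and 2.42 to 5.11 after LPS. *Rac1* shares 2309 identical bases on opposite strands with *Daglb*, which was at 0.470 to 0.603 untreated and 1.63 to 2.52 after LPS. It is also 95.3% identical over 831 bases to *Pphln1*, not analysed here.

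*Hvcn1*, the proton channel, varied most among untreated samples. Its values were 7.64, 5.73 and 26.1 scaled TPM untreated (13.2 ± 11.3, SD, n = 3) and 25.4, 20.3 and 19.2 after LPS (21.6 ± 3.31, SD, n = 3), a coefficient of variation of 85.6% and 15.3%. Untreated replicate 3 lay above every LPS sample, so the groups overlapped (log2 fold change 0.95, standard error 0.57, 95% interval -0.44 to 2.34, adjusted p = 0.46 from limma). Without that sample the log2 fold change was 1.56 and the adjusted p 0.0881, and without untreated replicate 2 they were 0.55 and 0.618. B cells also carry this channel, and markers of B cells summed to 1090, 280 and 1030 in the untreated and 796, 262 and 725 in the LPS samples. The part of B cells in the *Hvcn1* values was not tested. *Hvcn1* shares 1233 identical bases on opposite strands with *Tctn1*, which was at 0.423 to 1.38 untreated and 0.297 to 0.349 after LPS.

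Groups did not overlap in 5 of the 7 genes, 4 higher (*Ncf1*, *Cyba*, *Rac1* and *Rap1a*) and 1 lower (*Gpx1*) after LPS. Among all genes tested 13.1% did so with LPS higher and 9.75% with LPS lower. Among protein-coding genes with a mean of 1 or more these shares were 24.5% and 10.1%, 64.7% had a log2 fold change above 0 and the median was 0.37. Among these 6012 genes 40%, 42.4% and 39.5% had a higher fold change than *Ncf1*, *Rac1* and *Cat*. For *Hvcn1* and *Rap1a* 28.2% and 28.9% were higher, and for *Cyba* 15.6%. The median log2 fold change of the 7 genes was 0.64, beside 0.01 for all genes tested.

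The scaling moved these values together. With the same sum over protein-coding genes in each sample, the median log2 fold change was -0.04 for all genes and 0.02 for the 6012 coding genes, against 0.01 and 0.37 as deposited, and the log2 fold changes of *Ncf1*, *Rac1* and *Cat* were 0.14, 0.08 and 0.16. With the same sum over all genes the medians were 0.10 and 0.83, and the same genes had 1.25, 1.19 and 1.24. With each sample centred on its median they were -0.19 and 0.17. *Gpx1* ran from -3.27 to -2.20 over the scalings, and none of the 7 genes changed sign under any of them.

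**Figure D3:**
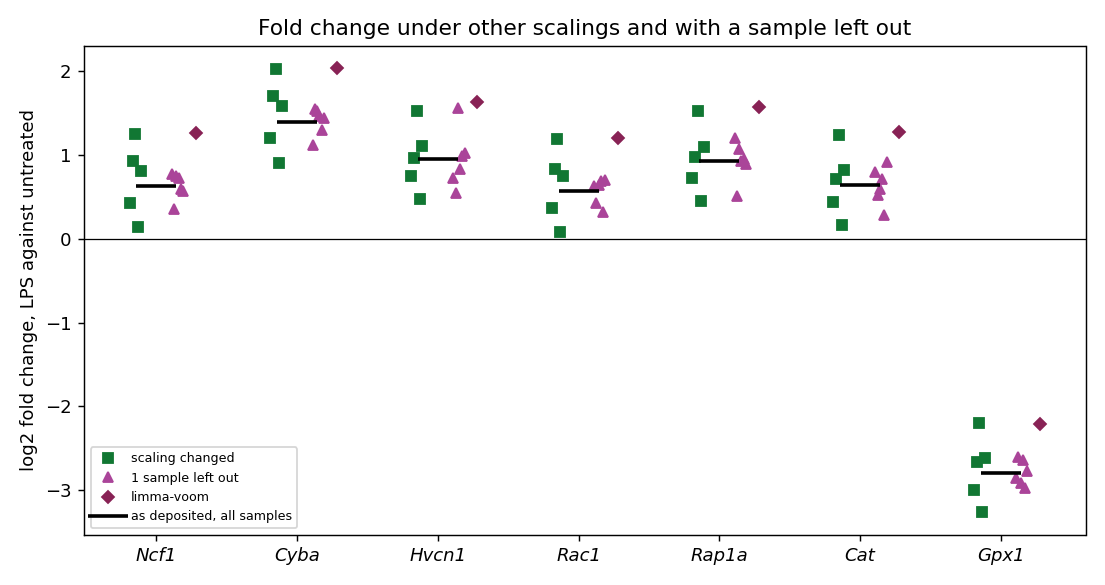
Log2 fold change of each gene, LPS against untreated, as deposited with all samples (bars), under 5 other scalings (squares), with 1 sample left out (triangles) and with limma-voom (diamonds). Limma-voom also scales each sample to its sum over all genes. *Gpx1* stays between -3.27 and -2.20, and the other 6 genes stay above 0, with *Rac1* as low as 0.08.

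The other genes of these pathways were taken from lists written by hand. Besides *Hvcn1* and *Rap1a*, 20 of 26 regulators of the oxidase were tested, 15 with a fold change above 0 and 5 below. Their median log2 fold change was 0.58, beside 0.37 for protein-coding genes with a mean of 1 or more, of which 64.7% were above 0. By each limma rule 0 were called lower, while 4 lay higher and 3 lower at an unadjusted p under 0.05 (10.3% and 6.66% of all genes). Of the 6012 protein-coding genes with a mean of 1 or more, 1228 lay higher and 458 lower at that p. The 1 called higher was *Mapkapk2*, a kinase downstream of p38, which rose from 160 ± 43.9 to 710 ± 148 scaled TPM (SD, n = 3; log2 fold change 2.16, adjusted p = 0.0429 from limma). Of the genes for other NOX and DUOX enzymes and their partner proteins 6 of 9 were in the table, 4 of them listed at 0 in every sample and the remaining 2 (*Nox4* and *Noxa1*) at or below 0.39. *Mpo*, the granule peroxidase made in the bone marrow, was at or below 0.14, and the related *Epx* and *Lpo* were listed at 0.

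Of 30 genes for removing superoxide and peroxide 20 were in the table and 18 were tested, 16 of them with a fold change above 0. Leaving out *Cat* and *Gpx1*, 15 of 16 were above 0, with a median of 0.98, and in 7 the LPS samples lay above all untreated ones. Of all 23049 genes tested, 12200 were above 0 and 13.1% had all LPS samples higher. For protein-coding genes with a mean of 1 or more these shares were 64.7% and 24.5%, with a median of 0.37. With the same sum over protein-coding genes the list median was 0.58, beside 0.02 for those coding genes. With the same sum over all genes it was 1.58, beside 0.83. *Txnrd1*, the thioredoxin reductase of the cytosol, rose from 58.1 ± 24.4 to 313 ± 18.2 scaled TPM (SD, n = 3; log2 fold change 2.51, adjusted p = 0.0479 from limma). *Txn1*, its substrate thioredoxin, was at 534, 587 and 225 untreated and 1559, 2390 and 1540 after LPS, past the first rule but not the second (log2 fold change 2.11, adjusted p = 0.0834 from limma). *Gpx1* was thus the only gene of this list called lower by either rule. The other glutathione peroxidases tested, *Gpx2*, *Gpx3*, *Gpx4* and *Gpx7*, were not called in either direction, and the difference between them and *Gpx1* was not tested.

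*Txnrd1* and *Gpx4*, the peroxidase of membrane lipids and named after its values were seen, encode selenocysteine enzymes as *Gpx1* does. *Gpx4* was at 9.60, 11.1 and 8.60 scaled TPM untreated and 14.4, 38.2 and 13.2 after LPS, with the groups apart and a log2 fold change of 0.93 (adjusted p = 0.371 from limma). Of 6 genes that build selenocysteine into proteins, 5 had a fold change above 0 and 1 below, with a median of 0.27, and 0 were called higher or lower. At an unadjusted p under 0.05, 2 were higher and 0 lower (10.3% and 6.66% of all genes). Of the 6012 protein-coding genes with a mean of 1 or more, 1228 were higher and 458 lower at that p.

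**Figure D4:**
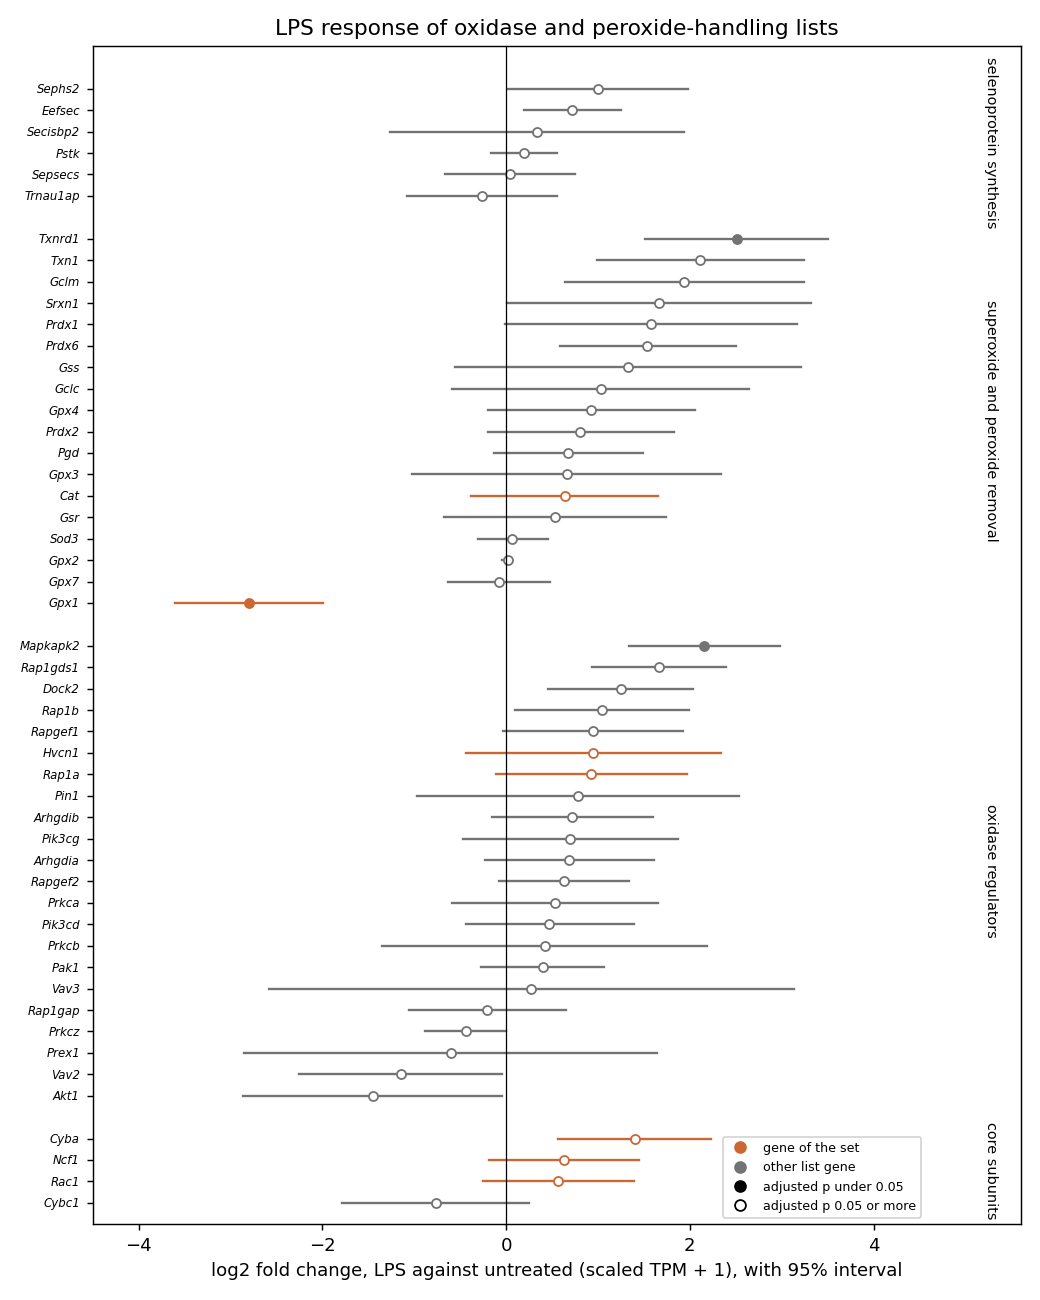
Log2 fold change of scaled TPM + 1, LPS against untreated, with 95% intervals from limma, for genes of 4 lists. Genes of the set are in orange, and filled points have an adjusted p under 0.05: *Gpx1* at -2.80, *Mapkapk2* at 2.16 and *Txnrd1* at 2.51.

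Among 6089 other named genes with a mean of 1 or more, the pattern over the 6 samples most like that of *Gpx1* was that of *Smad3* (Pearson r 0.998), at 52.9, 64.8 and 47.5 scaled TPM untreated and 13.5, 19.2 and 13.7 after LPS. For *Cyba* it was *Gabarapl2* (r 0.999), at 7.80, 13.0 and 12.6 untreated and 20.2, 25.0 and 21.8 after LPS. The genes closest to *Ncf1*, *Hvcn1*, *Rac1*, *Rap1a* and *Cat* were *Pan2*, *Mettl16*, *Eps15l1*, *Txndc17* and *Myl6* (r 0.990 to 0.996). With 6 points in 2 groups high correlations are common: 148 genes had an r of 0.95 or more with *Gpx1*, and 6 to 112 with each other gene of the set.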

How the data were processed

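RNA sequencing values of 6 samples of cGAS knockout neutrophils were analysed, grouped by the sample titles. The authors used STAR for alignment (GRCm39), Kallisto for quantification, and edgeR for normalization. The submitters' processing notes also name fastp and the build mm10. Versions and the annotation release are not given in the sources used here. From their digits, the deposited values were read as Kallisto TPM, averaged across each gene's transcripts, with a sample factor (0.861 to 1.12) divided out, although the table is named as counts. With that factor undone, 88.2 to 90% of the values of genes named Gm in the first 16999 rows and 89.5 to 95.2% in the other 21740, which are rounded to 7 digits, returned to the 6 digits Kallisto writes. Read counts were not recovered, so the main test used no count model, and the depth per sample is unknown. Limma-voom, a method made for counts, was run on the scaled TPM as an alternative only.

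Values were tested on log2(scaled TPM + 1) with limma 3.58.1 in R 4.3.3 (trend, two-sided, no covariates) over 23049 genes, leaving out 15690 at 0 in all samples. The script was tested on simulated data. Near-identical transcripts (95% over 150 bases) were sought with blastn 2.17.0 in GENCODE M39, and promoter sequences came from RefSeq. All 7 genes, the core subunits (1 of them not reported here), up to 2 called genes per list and direction, and the most correlated gene of each were named. The genes and lists were chosen with earlier results of these data known. Alternatives were other pseudocounts, filters, scalings, limma-voom, a replicate block, other limits and leaving out each sample. Undoing the sample factor, and the block with a sum over protein-coding genes, were added after seeing the data.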

Additional observations from a re-analysis of the deposited data

How the results depend on the processing

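All 7 genes kept the sign of their fold change in 20 of 20 alternatives, and *Gpx1* was called lower by the first rule in each, with log2 fold changes of -3.27 to -2.20 and adjusted p values of 0.0049 to 0.0961. The cause of the following changes was not tested. A pseudocount of 0.1 called 856 genes higher and 493 lower and one of 5 called 129 and 168, against 389 and 301. A mean of 1 or more gave 557 and 483 genes at an adjusted p under 0.05 (206 and 218 as reported), and eBayes without a trend 687 and 611. Protein-coding genes alone (12768 tested) gave 300 called higher and 45 lower, with 280 and 64 at the adjusted p, so the lower side changed most. With the same sum over all genes 789 were called higher and 144 lower, 723 were higher at the adjusted p, and *Cyba* was the 1 gene of the set past each rule on the higher side. With the same sum over protein-coding genes the counts were 217 and 517, and 123 and 388. Limma-voom, which also scales each sample to its sum over all genes, called 1552 higher and 177 lower, with 8941 and 452 at the adjusted p. Its log2 fold changes lay near those of the same sum over all genes (*Cyba* 2.04 and 2.03, *Gpx1* -2.21 and -2.20). It called 1 gene of the set (*Cyba*) higher and put 5 higher at the adjusted p (*Ncf1*, *Cyba*, *Rac1*, *Rap1a* and *Cat*, at 0.0318, 0.00501, 0.038, 0.0311 and 0.0495), with *Hvcn1* at 0.0671. A log2 limit of 1 called 834 higher, *Cyba* among them as the 1 gene of the set, and 673 lower.

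With the replicate number as a block, 1 gene was higher and 15 lower at the adjusted p, 0 genes of the set passed, and *Gpx1* had an adjusted p of 0.0811. The block with the same sum over protein-coding genes called 215 higher and 534 lower, with 3 and 47 at the adjusted p and 0 of the set (*Gpx1* 0.0524). The samples share only a number: correlations of same-numbered samples' deviations from the group means were 0.094, 0.199 and 0.083. Leaving out 1 sample gave 238 to 434 genes called higher and 241 to 375 lower, 1 to 230 higher and 7 to 256 lower at the adjusted p, and 0 to 1 of the set lower at the adjusted p. The 1 and 7 came without LPS replicate 1 and again without LPS replicate 3, and without untreated replicate 3 the counts were 63 and 71. Without untreated replicate 1, 132 were higher, and without LPS replicate 2, 129 were lower. Where the adjusted p fails, the design holds 3 samples a group and the depth is unknown, so smaller changes in *Ncf1*, *Rac1*, *Rap1a*, *Hvcn1* and *Cat* could not be told from the spread.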
